A study of Mus musculus with 4 samples.

Results

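The genes described here are 6 genes of glucose metabolism in the liver, Pck1, Fbp1, G6pc, Slc2a2, Gys2 and Ppargc1a, out of 22350 annotated protein-coding genes on the chromosomes that hold CTCF sites. They were chosen by name for their known roles, with earlier results of these data known. Every CTCF site listed in the body of each gene or within 200 kb on either side of it was taken. These 6 windows span 2.63 Mb and held 20 of the 10113 sites listed at ZT0 and 12 of the 6799 sites listed at ZT12.

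The study followed chromosome conformation in the liver over the day, and binding of the architectural protein CTCF was mapped by ChIP-seq, in which an antibody pulls down the DNA that a protein occupies before it is sequenced. Livers came from wild type male C57BL/6 mice, with an age given as 8 weeks. The paper states that mice of this age were then kept for 2 weeks under 12 hours of light and 12 hours of dark. They were fed ad libitum. In their labels the groups differ in time of day only: ZT0, when lights go on, and ZT12, when lights go off. Each has 2 biological replicates. For each time point there is 1 list of peaks for its replicates, with the chromosome, start and end of each site in mm9 and no height, score or strand. The spread between replicates therefore cannot be measured, the read depth behind a site is unknown, and all values below describe these lists. The label liver could not be checked against marker genes, because the lists hold positions and no expression.

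The liver keeps blood glucose steady by making glucose from lactate, amino acids and glycerol during fasting and by storing it as glycogen after feeding. Mice eat mostly in the dark, so lights on and lights off fall near the end and the beginning of the feeding phase, and many genes of hepatic glucose metabolism are known to be rhythmic. CTCF binds a long, directional sequence motif and, together with cohesin, delimits chromatin loops and domains, which tend to form between motifs that point towards each other.

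A site counted as shared where a site from the other time point covered at least 1 bp of it. All 12 ZT12 sites in the windows were shared with ZT0 (95% Wilson interval 75.8 to 100%, which covers counting error only), against 83.6% of the whole ZT12 list. Of the 20 ZT0 sites, 12 were shared (60.0%, 38.7 to 78.1%) and 8 were listed at ZT0 only, against 56.2% shared in the whole ZT0 list. No window held a site listed at ZT12 only. The ZT0 fraction thus lay close to that of the whole list, and the ZT12 fraction was above it, with 83.6% inside the interval of the 12 sites. The lists used here hold fewer sites than the study's text describes, and how they were narrowed is not given in the sources used here. The shared fractions and the ZT0-only sites therefore refer to these lists, not to every peak called. The ZT12 list is the shorter, and a site listed at ZT0 only was not shown to be unbound at ZT12, since no signal at ZT12 is given for it.

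At least 1 ZT0 site lay in the window of 5 of the 6 genes, against 79.1% of all protein-coding genes treated in the same way. At least 1 ZT12 site lay in the window of 4 genes, against 72.4%, and at least 1 shared site in the window of 4 genes, against 68.1%. The median over the 6 genes was 2 ZT0 sites and 1.5 ZT12 sites, beside medians of 3 and 2 over all protein-coding genes. Per length, the 6 windows together held 7.59 ZT0 and 4.55 ZT12 sites per Mb, beside 3.83 and 2.58 per Mb of the whole genome. The genome values also cover stretches outside gene windows, unlike the medians, so the direction depends on the measure and its baseline. The genes differed widely among themselves: the window of Pck1 alone held 9 of the 20 ZT0 sites, G6pc 6, Fbp1 3, Slc2a2 and Gys2 1 each, and Ppargc1a none.

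**Figure D1:**
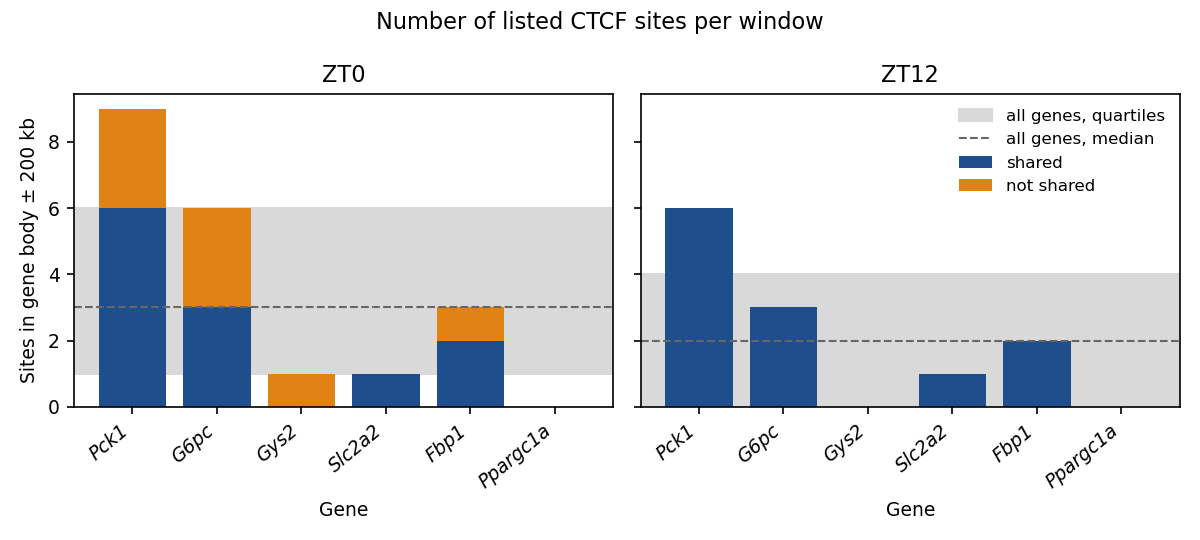
Number of CTCF sites listed at ZT0 (left) and ZT12 (right) in the body of each gene extended by 200 kb on both sides; blue bars are sites shared between the time points and orange bars sites that are not, the dashed line is the median of all 22350 protein-coding genes and the grey band spans their quartiles. Pck1 has 9 and 6 sites, above the upper quartile at both times, and Ppargc1a has none.

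No site overlapped the body of any of the 6 genes, and none lay within 5 kb of their transcription starts. For comparison, 18.2% of all protein-coding genes had a ZT0 site that overlapped the gene body and 13.0% had a ZT0 site within 5 kb of the start. The 20 ZT0 sites were split between 11 upstream and 9 downstream of the genes. By the midpoint, 10 lay between genes, 5 in introns, 2 in coding exons and 3 within 1 kb of the transcription start of some other transcript. This split was close to that of the whole ZT0 list, in which 43.3% of sites lay between genes, 30.8% in introns, 5.49% in exons and 20.4% near a start.

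**Figure D2:**
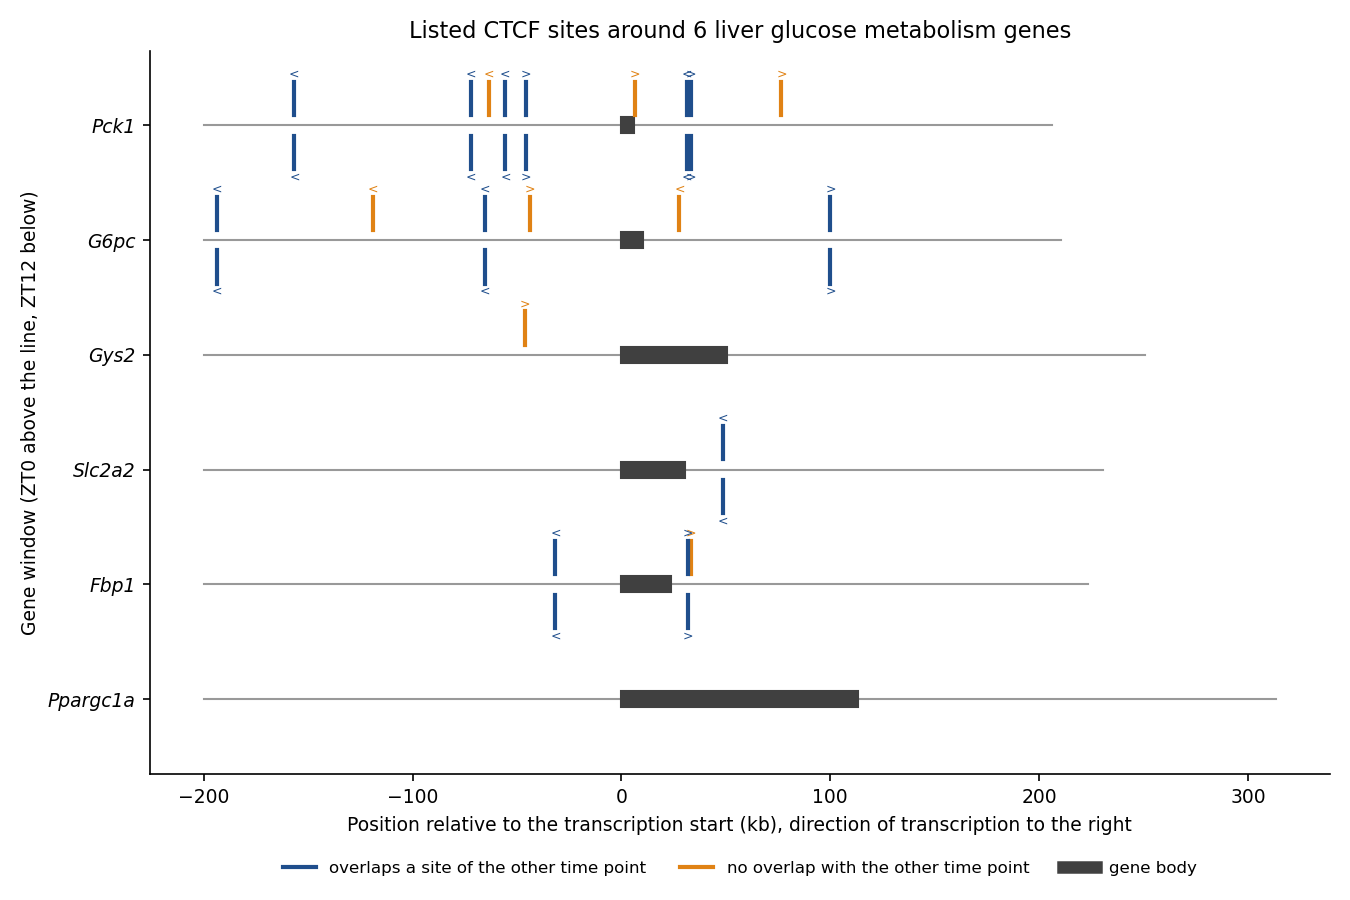
Map of the 6 windows, with the position in kb from the transcription start on the horizontal axis and the direction of transcription to the right; ZT0 sites are drawn above each line and ZT12 sites below, blue where they overlap a site of the other time point and orange where they do not. Arrowheads give the direction of the best motif match relative to transcription, and grey boxes are the gene bodies. Every ZT12 site has a ZT0 site above it, and no site falls on a grey box.

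The CTCF motif was found in the sites themselves, without an outside model. In the listed sites, the word most in excess over sequence 5 kb away was CCACCAGGGGGC (searched on both strands), which occurred exactly in 3.89% of the ZT0 list and 4.40% of the ZT12 list, and in 0.0198% and 0.0294% of regions of equal length 5 kb away. A 19 bp weight matrix grown from it had the consensus GTGGCCACCAGGGGGCGCC. At a p of 0.0001 per position, 98.8% of the sites of either list held a match, against 13.7% (ZT0) and 13.4% (ZT12) of the regions 5 kb away. All 20 ZT0 and 12 ZT12 sites of the windows held a match, and none held the exact 12-letter word. At a stricter score, which about 1% of the regions 5 kb away reach and which defines the high-scoring matches named here, 12 of 20 ZT0 and 8 of 12 ZT12 sites held a match (60.0% and 66.7%), close to 64.6% and 66.7% of the whole lists. The labels name the motif scanner FIMO in the making of the lists, so the near-complete presence of a match cannot be told apart from that step.

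Pck1 encodes the cytosolic phosphoenolpyruvate carboxykinase, which commits oxaloacetate to glucose synthesis. The gene is short (chr2:172978549-172984774, forward strand), and its window held 9 ZT0 sites, of which 6 were shared, and 6 ZT12 sites, all shared. Fewer ZT0 sites were found for 89.6% of protein-coding genes and fewer ZT12 sites for 86.5%. In total, 89 protein-coding genes (0.398%) had the same counts of ZT0, ZT12 and shared sites as Pck1.

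Upstream of Pck1, 5 sites were listed at ZT0. The outermost, at chr2:172821790-172822069, lay 157 kb from the Pck1 start and 3.69 kb from the start of Rae1, a gene for an mRNA export factor, with the meiotic gene Spo11 on its other side; it was shared. A shared site at chr2:172906374-172906772 and a ZT0-only site at chr2:172915053-172915288 lay between Rbm38, which encodes an RNA-binding protein, and Ctcfl. The remaining upstream sites, both shared, lay in introns of Ctcfl, at chr2:172922747-172923116 and chr2:172932881-172933199. Ctcfl encodes a germline paralogue of CTCF itself, also called BORIS, so the gene next to Pck1 on this side carries sites for the factor that its own product resembles.

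The site at chr2:172922747-172923116 differed from the others in its sequence. It held 6 high-scoring CTCF motif matches, all on the reverse strand and spaced by exactly 32 bp, so that the matches spanned 179 bp. Of the 10113 sites at ZT0, 4 (0.0396%) held 6 or more such matches, as did 4 of the 6799 sites at ZT12 (0.0588%), and 2.11% of the ZT0 list held 2 or more. Of the 6 matches, 5 had the same 19 letters. The ZT12 site at this place, 264 bp at chr2:172922881-172923144, is given from mm9 on the reverse strand, with the matches in capitals, to show the repeat.
Ctcfl intron: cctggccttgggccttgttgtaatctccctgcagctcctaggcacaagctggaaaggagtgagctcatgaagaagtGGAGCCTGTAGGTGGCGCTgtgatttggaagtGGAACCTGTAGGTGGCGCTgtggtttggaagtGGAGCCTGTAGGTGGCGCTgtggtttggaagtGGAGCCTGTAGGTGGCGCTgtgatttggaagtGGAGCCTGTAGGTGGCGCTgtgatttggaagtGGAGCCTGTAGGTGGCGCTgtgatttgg

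Downstream of Pck1, 4 sites were listed at ZT0. The nearest of all sites to any of the 6 genes was here: chr2:172984961-172985261 lay 0.337 kb past the 3′ end of Pck1 and 6.56 kb from its start. It was 301 bp wide and listed at ZT0 only, and its best match scored lower than that of most sites (15.2nd percentile of the ZT0 list). Beyond it lay a close pair of shared sites at chr2:173009701-173009982 and chr2:173011724-173012250, separated by 1.74 kb and lying 31.3 and 33.4 kb from the Pck1 start. Their matches were among the strongest of the list, at percentiles 98.1 and 97.5 of the ZT0 scores, and pointed away from each other. The same was found for 134 (23.9%) of 560 neighbouring ZT0 pairs within 3 kb and for 26.2% of all neighbouring ZT0 sites. The outermost downstream site, chr2:173055010-173055356, was ZT0-only and lay in an intron of Pmepa1, which encodes a membrane inhibitor of TGF-beta signalling; the start of Zbp1, a gene for a nucleic acid sensor, was 10.8 kb away.

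The sites nearest to the Pck1 start on either side set the interval in which the gene lies. At ZT12 this interval ran from the Ctcfl intron, 45.5 kb upstream, to the close pair, 31.4 kb downstream, and was 76.9 kb long. Ctcfl and Pck1 were the only protein-coding genes with their start inside it, beside the noncoding gene 1300015D01Rik, and the matches at its ends pointed towards each other. At ZT0 the additional site behind the 3′ end shortened the interval to 52.1 kb, with matches on the same strand. The match at that site was below the stricter score, so its direction is uncertain. Both intervals were short, as the median over all protein-coding genes was 266 kb at ZT0 and 407 kb at ZT12 and 11.7% of genes had a shorter interval at either time. A convergent arrangement by itself was common, with 26.2% of protein-coding starts at ZT12 and 25.8% at ZT0.

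The matches at the ends of the ZT12 interval and at the second site of the close pair are given from mm9, in the direction of the match, with the 19 bp match in capitals; the middle sequence is the whole ZT0 site.
Ctcfl intron, forward strand, chr2:172933051-172933109: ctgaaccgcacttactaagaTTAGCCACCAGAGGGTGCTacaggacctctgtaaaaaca
Downstream of Pck1, reverse strand, chr2:173009701-173009982: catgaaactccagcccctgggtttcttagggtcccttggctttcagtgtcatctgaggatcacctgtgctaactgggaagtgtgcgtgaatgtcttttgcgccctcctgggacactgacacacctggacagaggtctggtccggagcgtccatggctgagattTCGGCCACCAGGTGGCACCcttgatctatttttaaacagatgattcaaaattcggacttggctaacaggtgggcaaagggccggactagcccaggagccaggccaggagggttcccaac
Next site downstream, forward strand, chr2:173011995-173012053: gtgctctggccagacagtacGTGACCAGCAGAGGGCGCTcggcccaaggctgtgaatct
Against the 19-letter consensus, the matches had 14, 15 and 15 identical letters.

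Fbp1 encodes the fructose bisphosphatase of liver and kidney, the enzyme that reverses the phosphofructokinase step during glucose synthesis. It lies on the reverse strand at chr13:62966113-62989642, upstream of its muscle paralogue Fbp2 on the same strand. Its window held 3 ZT0 sites, of which 2 were shared, and 2 ZT12 sites, both shared. The ZT0 and ZT12 totals were at the medians of all protein-coding genes, whose median of shared sites was 1, and 677 genes (3.03%) had the same counts. The sites fell in places of clear identity. At chr13:62956106-62956431 a ZT0-only site of 326 bp had its midpoint in a coding exon of Fbp2. At chr13:62957575-62958150, 1.14 kb away, a shared site lay in an intron of Fbp2, 1.90 kb from the Fbp2 start. The latter was the widest of the 20 ZT0 sites at 576 bp, wider than 97.3% of the ZT0 list, and measured 435 bp at ZT12.

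The remaining Fbp1 site, chr13:63021103-63021351, was shared, with a width of 249 bp at ZT0 against 260 bp at ZT12, and lay between genes 31.6 kb upstream of the Fbp1 start. The next protein-coding start beyond it was that of 2010111I01Rik, 45.0 kb away. Together with the Fbp2 intron it enclosed the protein-coding starts of Fbp1, Fbp2 and the gene model Gm17367 in an interval of 63.4 kb at ZT0 and 63.5 kb at ZT12, shorter than in all but 15.0% and 9.24% of genes. The starts of the liver and muscle genes thus lay in an interval with the same sites at ZT0 and ZT12 as its ends, while most of the Fbp2 body lay outside it. The matches at the ends pointed away from each other. They are given in the direction of the match, the upstream site as a whole, with the match in capitals.
Fbp2 intron, reverse strand, chr13:62957701-62957759: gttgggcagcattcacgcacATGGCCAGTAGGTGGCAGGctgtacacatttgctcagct
Upstream of Fbp1, forward strand, chr13:63021103-63021351: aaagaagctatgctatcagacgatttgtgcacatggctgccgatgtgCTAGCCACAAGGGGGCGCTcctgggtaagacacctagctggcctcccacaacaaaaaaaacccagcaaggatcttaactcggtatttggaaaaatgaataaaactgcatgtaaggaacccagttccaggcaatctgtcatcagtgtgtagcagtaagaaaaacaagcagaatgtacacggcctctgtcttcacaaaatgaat
The upstream match had 15 letters of the consensus and scored higher than 93.3% of the ZT0 list. The match in the Fbp2 intron had 12 letters and scored higher than 72.3%.

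G6pc encodes the catalytic subunit of glucose-6-phosphatase, which releases free glucose in the last step of both glucose synthesis and glycogen breakdown. It lies at chr11:101228875-101239217 on the forward strand in a gene-dense region, with 21 other protein-coding genes in the window beside a median of 8. The window held 6 ZT0 sites, of which 3 were shared, and 3 ZT12 sites, all shared. Fewer ZT0 sites were found for 74.7% of genes and fewer ZT12 sites for 59.3%, and 195 genes (0.872%) had the same counts.

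The 3 shared sites of the G6pc window lay at or in other genes. The site at chr11:101035091-101035487, 194 kb upstream, had its midpoint in a coding exon where Cntnap1 and Ccr10 overlap, and was rich in CpG, with 34 CpG in 397 bp and a GC content of 65.5%. The site at chr11:101163519-101163867, 65.2 kb upstream, lay 93 bp from the start of Becn1, a gene of autophagy. The site at chr11:101328785-101329090, 100.1 kb from the G6pc start on the downstream side, lay in Rnd2, a gene for a small GTPase, 552 bp before the start of its shorter transcript. Their best matches were weak, at percentiles 16.9, 3.91 and 14.2 of the ZT0 scores, and none reached the stricter score. The ZT12 sites of G6pc therefore held no high-scoring match, unlike those of Pck1, of which 5 of 6 did.

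The 3 ZT0-only sites of the G6pc window lay closer to the gene or in introns. At chr11:101109942-101110290 a site of 349 bp lay in an intron of Ramp2, a receptor subunit gene, with a match at percentile 80.3. At chr11:101184961-101185199 a site of 239 bp lay 1.30 kb from the start of the amine oxidase gene Aoc2, with a match as weak as those of the shared sites (percentile 11.4). At chr11:101256499-101256835 a site of 337 bp lay between genes, 17.45 kb past the 3′ end of G6pc and 27.8 kb from its start, with a match at percentile 46.2. These last 2 sites were the nearest on either side of G6pc at ZT0. They gave an interval of 71.6 kb with convergent matches and the protein-coding starts of Aoc2, Aoc3 and G6pc inside. At ZT12, without them, the interval ran from Becn1 to Rnd2 over 165 kb, held 10 protein-coding starts and had divergent matches. The matches at 3 of these 4 ends (Aoc2, Becn1 and Rnd2) were below the stricter score, so their directions are uncertain. Of all protein-coding starts, 25.8% lay between convergent and 26.9% between divergent matches at ZT0, and 26.2% and 25.4% at ZT12. The nearest sites of G6pc thus differed between the lists on both sides, as did those of Ppargc1a, whose window held no site. How often this occurs over all protein-coding genes is not given here. In the whole ZT0 list, 56.2% of sites were shared. The match downstream of G6pc is given in its own direction with the match in capitals.
Downstream of G6pc, reverse strand, chr11:101256639-101256697: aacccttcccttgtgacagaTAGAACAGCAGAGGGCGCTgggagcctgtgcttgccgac

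Slc2a2 encodes the glucose transporter GLUT2, through which hepatocytes take up and release glucose. Its window around chr3:28596825-28627278 (forward strand) held 1 site at each time, and 1171 genes (5.24%) had the same counts. The site, chr3:28645091-28645382 at ZT0 and chr3:28645085-28645395 at ZT12, was shared, with the whole ZT0 site inside the ZT12 site. It lay 18.0 kb past the 3′ end of Slc2a2 and 48.4 kb from its start. It falls within the long noncoding transcript 1700112D23Rik, which runs antisense across most of Slc2a2, and 713 bp from the start of a predicted miRNA gene. On the other side of Slc2a2 the nearest ZT0 site was 1237 kb from the start, so the interval was 1285 kb at ZT0, and 581 kb at ZT12, where a site in the list at 532 kb had no ZT0 partner. Matches at the ends of either interval were convergent. The whole ZT0 site is given on the reverse strand, with the match, which had 15 letters of the consensus, in capitals.
Downstream of Slc2a2, reverse strand, chr3:28645091-28645382: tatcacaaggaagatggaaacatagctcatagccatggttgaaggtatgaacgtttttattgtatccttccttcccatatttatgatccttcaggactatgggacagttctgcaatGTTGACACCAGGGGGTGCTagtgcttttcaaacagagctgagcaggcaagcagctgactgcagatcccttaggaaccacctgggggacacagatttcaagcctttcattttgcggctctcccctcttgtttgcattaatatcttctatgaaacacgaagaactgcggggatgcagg

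Gys2 encodes the liver glycogen synthase and is the storage gene among the 6. Its window around chr6:142371133-142421629 (reverse strand) held 1 ZT0 site and no ZT12 site, as was the case for 1238 genes (5.54%). The site, chr6:142467689-142467921, was the narrowest of the 20 at 233 bp, wider than 11.1% of the ZT0 list. It lay between genes, 46.2 kb upstream of Gys2 and 11.3 kb from the start of Ldhb, which encodes a lactate dehydrogenase subunit, with the potassium channel gene Kcnj8 on the other side. Its match scored higher than 61.4% of the ZT0 list. At ZT12 the nearest site was 342 kb from the Gys2 start, and 20.5% of genes had their nearest ZT12 site farther away. The interval around the start accordingly was 479 kb at ZT0 and 774 kb at ZT12, with the same strand at both ends. The downstream end, 432 kb from the start, was a shared site. The whole ZT0-only site is given on the reverse strand, with the match in capitals.
Upstream of Gys2, reverse strand, chr6:142467689-142467921: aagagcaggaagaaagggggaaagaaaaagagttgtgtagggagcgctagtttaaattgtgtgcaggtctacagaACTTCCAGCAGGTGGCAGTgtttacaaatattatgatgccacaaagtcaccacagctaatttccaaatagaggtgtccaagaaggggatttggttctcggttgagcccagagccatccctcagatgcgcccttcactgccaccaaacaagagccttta

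Ppargc1a encodes a transcriptional coactivator that is induced in fasting and raises the expression of genes for glucose synthesis, Pck1 and G6pc among them. It was the only gene of the 6 without a site at either time. Its body, chr5:51845488-51958964 on the reverse strand, is the longest of the 6 at 113 kb, and its window of 513 kb held no other protein-coding gene. No ZT0 site was likewise listed in the windows of 20.9% of genes and no ZT12 site in those of 27.6%, and 4222 genes (18.9%) had none in either list. The nearest ZT0 site lay 498 kb from the start, at chr5:52456269-52456678, and the nearest ZT12 site 1066 kb, at chr5:53025225-53025542. Farther nearest sites were found for 11.5% and 7.46% of genes. The site-free interval around Ppargc1a was 1588 kb at ZT0, with no other protein-coding start inside. At ZT12 it was 7099.6 kb and held 14 protein-coding starts, Ppargc1a among them. These intervals were longer than for 82.2% and 96.3% of genes. From the start of the annotated transcript of known status, at position 51945160, the nearest ZT0 site was 511 kb away.

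Across the 6 genes, the nearest ZT0 site was 6.56 kb from the start for Pck1, 27.8 kb for G6pc, 31.6 kb for Fbp1, 46.2 kb for Gys2, 48.4 kb for Slc2a2 and 498 kb for Ppargc1a. The median over all genes was 47.8 kb, so 4 of the 6 genes had a closer site, Slc2a2 lay just beyond the median and Ppargc1a far beyond it. At ZT12 the order was Pck1 at 31.4 kb, Fbp1 at 31.6 kb, Slc2a2 at 48.4 kb, G6pc at 65.2 kb, Gys2 at 342 kb and Ppargc1a at 1066 kb, beside a median of 76.3 kb. From the start of a shorter annotated Fbp1 transcript, the nearest site was 16.256 kb away at ZT0 and 16.34 kb at ZT12, which would place Fbp1 before G6pc at ZT0 and before Pck1 at ZT12. For Fbp1 and Slc2a2 the nearest site was the same at both times, and for Pck1, G6pc, Gys2 and Ppargc1a the nearest ZT0 site was listed at ZT0 only. In the whole ZT0 list 56.2% of sites were shared. The share of all protein-coding genes with a ZT0-only nearest site is not given here, so this split is not a trait of these genes.

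The width of a peak is the only other quantity in the lists. The 20 ZT0 sites had a median width of 322.5 bp, from 233 to 576 bp, beside 313 bp for the whole list. The 12 ZT12 sites had a median of 281 bp, from 232 to 451 bp, beside 285 bp. At ZT0 the shared sites had a median of 334 bp and the ZT0-only sites one of 313.5 bp. Of the 12 shared sites, 8 were narrower at ZT12 and 4 wider, with a median difference of −72 bp (ZT12 minus ZT0, from −258 to 169 bp). In the whole lists, 71.2% of 5665 pairs were narrower at ZT12, with a median of −47 bp. The largest changes in either direction fell on the close pair downstream of Pck1: the nearer site measured 282 bp at ZT0 against 451 bp at ZT12, and the farther site 527 bp against 269 bp. Neighbouring sites 1.74 kb apart thus differed in opposite directions.

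**Figure D3:**
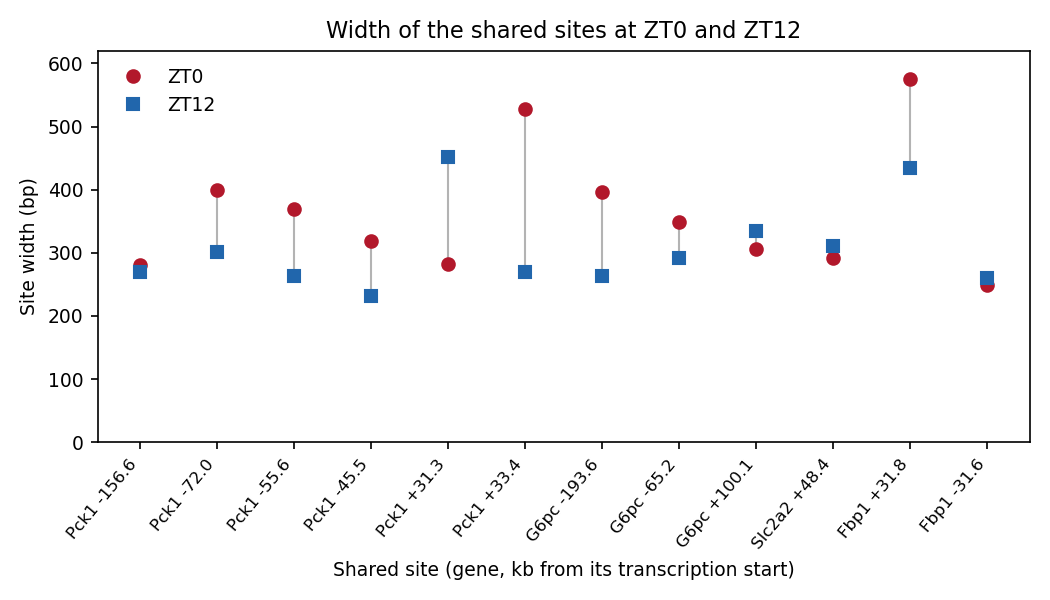
Width in bp of the 12 shared sites at ZT0 (red circles) and ZT12 (blue squares), each labelled with its gene and its distance in kb from the transcription start, upstream negative. In 8 sites the square lies below the circle, and the close pair at 31.3 and 33.4 kb from Pck1 shows the widest gaps, in opposite directions.

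A separate list of 48 genes of glycolysis, glucose synthesis, glycogen turnover, glucose transport and their hormonal control was examined in the same way. It does not include the 6 genes. Fbp2 is on it, and its window held the same 3 ZT0 and 2 ZT12 sites as that of Fbp1. All 48 genes were found in the annotation. At least 1 ZT0 site was listed in the windows of 42 of them (87.5%), at least 1 ZT12 site in 35 (72.9%) and at least 1 shared site in 33 (68.8%). Over all protein-coding genes these shares were 79.1%, 72.4% and 68.1%. The medians were 3 ZT0, 2 ZT12 and 1 shared site, the same as over all protein-coding genes. The largest numbers were found for Pklr, the liver pyruvate kinase (14 ZT0 and 12 ZT12 sites), Gys1, the glycogen synthase of muscle (11 and 10), Gcgr, the glucagon receptor (11 and 6), and Tpi1, triosephosphate isomerase (10 and 8). No site in either list was found for 6 of the 48 genes, beside 18.9% of all protein-coding genes. Among the 6 were the malate dehydrogenase gene Mdh1 and 3 genes on chromosome X, Pfkfb1, Pgk1 and Phka2. The share of all genes on chromosome X without a site is not given here.

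Sites within 5 kb of a transcription start, which all 6 genes lacked, were listed for 11 of the 48 genes at ZT0 (22.9%) and 8 at ZT12 (16.7%), beside 13.0% and 8.96% of all protein-coding genes. No test was run on this difference. The nearest sites were those of Khk, which encodes ketohexokinase (0.105 kb at ZT12), Gys1 (0.206 kb at ZT0) and Irs1, an insulin receptor substrate gene (0.344 kb at ZT12), all shared. Ppp1r3b, which encodes the glycogen-targeting subunit of protein phosphatase in liver, had a ZT0-only site 0.755 kb from its start and no ZT12 site in its window, while 4 ZT0 sites lay there. Slc2a4, the insulin-responsive glucose transporter gene, likewise had a ZT0-only site, 0.897 kb from its start. Shared sites lay 1.29 kb from the start of Irs2, 1.90 kb from Fbp2, 3.53 kb from Pklr, 3.57 kb from the enolase gene Eno1 and 3.86 kb from Pygl, the liver glycogen phosphorylase. Both glycogen synthase genes can be set side by side: Gys1 had a shared site at its start and 10 ZT12 sites in its window, and Gys2 had no ZT12 site within 200 kb.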

How the data were processed

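CTCF ChIP-seq peaks from mouse liver were used. The authors checked reads with FastQC, mapped them to NCBIM37/mm9 with Bowtie2, kept a mapping quality of at least 30 with samtools and removed duplicates with Picard. MACS2 at default settings called the peaks. The deposited peak lists used here give positions only. How replicates were combined and what the FIMO step kept is not given in the sources used here.

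Gene positions, windows and sequences came from the GENCODE annotation and genome of the same build. Distances run from site midpoints to the 5′ end of the annotated gene. The 19 bp matrix was refined over 3 rounds on odd-numbered chromosomes for the others and the reverse. Overlap, window and motif steps were tested on simulated sites. Sites are not replicates, so no test was run.

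The named genes are the 6 genes, the genes beside their sites, and of the 48 pathway genes those with most sites, with none (up to 4 each) and with a site within 5 kb (up to 10). Members and lists were chosen with earlier results of these data known. Genome-wide motif counts, the repeat and the sequences shown were chosen after seeing the data. Extensions of 50, 100 and 500 kb, a window around the start, midpoints, stricter and looser overlap, wider sites and a stricter motif score were tried. Python 3.11.15, NumPy 2.4.6, SciPy 1.17.1, pysam 0.24.0 and matplotlib 3.10.9 were used.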

Additional observations from a re-analysis of the deposited data

How the results depend on the processing

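With 50 kb in place of 200 kb, the windows held 11 ZT0 and 6 ZT12 sites, of which 6 were shared in either list. With 500 kb they held 40 and 28 sites, of which 26 were shared in either list, so 2 ZT12-only sites entered. Among sites wider than the median of their list, 7 ZT0 and 6 ZT12 sites were shared. At the stricter motif score, 20 of the 32 sites held a match. These 11 of 61 alternative values differed from the reported ones by more than 1.5 times, in each case because more or fewer bases, sites or matches were admitted. The other 50 stayed within that limit, or, for shared percentages, within the Wilson interval, among them the numbers of genes with a site. No paired analysis was possible because a listed site carries no replicate number, and for the same reason leaving out a replicate was not run. Depth is unknown, so a site missing from a list was not shown to be unbound.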

Other observations

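The mm9 genome was searched for further motif matches at the stricter score, a count added after the sites had been seen. Matches up to 100 bp apart were joined to a place, which gave 28546 places, of which 25.6% lay in a site of either list. The 6 windows held 46 such places, of which 12 lay in a listed site (26.1%), so the share of places with a listed site was close to that of the genome. The places were unevenly spread: Pck1 had 18, G6pc 10, Gys2 and Slc2a2 6 each, Fbp1 4 and Ppargc1a 2. Per length, this was 44.3 places per Mb for Pck1 and 3.90 for Ppargc1a, beside 10.8 for the genome. The window with most listed sites was also the richest in matches, and the window without sites was the poorest. Between these, the order was mixed. G6pc, with 6 ZT0 sites, had 24.4 places per Mb. Fbp1, with 3 ZT0 sites, had 9.44, fewer than Gys2 (13.3) and Slc2a2 (13.9) with 1 ZT0 site each. These counts include the places in listed sites, and the matrix was learned from the same lists, so places and sites are not independent. Outside listed sites, Pck1 had 12 places, G6pc 8, Gys2 and Slc2a2 5 each, and Fbp1 and Ppargc1a 2 each.

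High-scoring matches without a listed site were found near several of the genes. In the Gys2 window the match of highest score, 21.2 at chr6:142473575-142473593, was in no listed site, while the listed ZT0 site nearby had a score of 19.2. Another match lay upstream at −4.32 kb from the Gys2 start, at chr6:142425941-142425959. In the Pck1 window a match of score 22.2 at chr2:172864054-172864072 was in no listed site. Inside Slc2a2, an intron held a match at chr3:28608837-28608855, the only such match in the body of any of the 6 genes. Whether these places were bound below the threshold of the lists was not tested.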
